A study of Mus musculus with 4 samples.

Results

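Respiratory complex III, complex IV and the ATP synthase of the mouse heart were followed through all gene symbols that begin with Uqcr, with Cox4 to Cox8 or with Atp5. The rule found 40 genes among the 12408 listed: 8 of complex III, 15 of complex IV and 17 of the ATP synthase. For 3 of the 40 the symbol fits but the product is not a structural subunit. Cox7a2l is a supercomplex assembly factor, Atp5s is coupling factor B, and its relative Atp5sl (Dmac2 in RefSeq) is an assembly factor of complex I. The hearts came from C57BL/6 mice, 3 months old, with 1 mouse and 1 RNA library in each of 4 groups. Control mice (CT) carried WW45 flox/flox alleles without Cre. Cardiac knockout mice (cKO) carried the same floxed alleles with an alpha-MHC-CRE transgene, whose promoter is active in cardiomyocytes, so other heart cells keep the gene. Within each genotype 1 mouse was at baseline and 1 had 4 weeks of transverse aortic constriction (TAC), which narrows the aorta and loads the left ventricle with pressure. WW45 is listed as Sav1, the scaffold protein of the Hippo kinases. The labels name no sham operation, so the surgery itself and the pressure load cannot be told apart. Both cKO mice carried Cre and no CT mouse did, so the presence of Cre and the loss of WW45 cannot be told apart either.

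The respiratory chain passes electrons from nutrients to oxygen across the inner mitochondrial membrane and pumps protons as it does so. Complex III (ubiquinol-cytochrome c reductase) hands electrons to cytochrome c, complex IV (cytochrome c oxidase) hands them to oxygen, and the ATP synthase lets the protons return through a rotating ring to make ATP. Heart muscle is packed with mitochondria and carries heart and skeletal muscle versions of several complex IV subunits in place of the versions found in most tissues. The catalytic subunits of complex IV, cytochrome b of complex III and some membrane subunits of the ATP synthase are encoded in mitochondrial DNA. The files list 0 of the 6 mitochondrially encoded genes looked for, so the values below concern the nuclear subunits alone.

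The reads recovered from the deposited values came to between 1587840 and 2796547 per library. The measured level of the targeted gene did not follow its label under TAC. Levels are given as CPM, the reads of a gene scaled to a fixed library total. Sav1 stood at 49.3 CPM at baseline and 35.4 under TAC in CT, and at 39.8 and 46.2 in the libraries labelled cKO, from 133, 71, 65 and 85 reads in that order. Its level thus read lower in the knockout at baseline and higher under TAC. At these read counts neither difference is shown here to exceed counting error, so neither shows a knockdown or a reversal. The directions drawn between genotypes below rest on the labels. The cardiomyocyte markers (10 of 10 listed) summed to 127782, 129369, 112168 and 103178 CPM, lower in both libraries labelled cKO, while their median log2 ratios of cKO to CT were -0.03 at baseline and -0.02 under TAC. The 8 fibroblast markers summed to 1417, 4701, 2180 and 5791 CPM, the 8 macrophage markers summed to 380, 574, 906 and 784 CPM and the 3 listed erythroid markers to 1092, 737, 1565 and 2240 CPM, each in the order CT baseline, CT TAC, cKO baseline, cKO TAC. In whole heart RNA, fewer cells of a type and less RNA per cell cannot be told apart, and the part of these cell types in the results was not tested.

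The 40 genes took 4.20% of the reads at baseline and 3.92% under TAC in CT, and 3.70% and 3.80% in the libraries labelled cKO. Per kilobase of transcript, the scale on which genes can be compared with each other, Atp5b led with a mean level of 5748 CPM per kb, followed by Cox4i1 at 2291, Atp5c1 at 2046, Uqcr10 at 2008 and Atp5a1 at 1995. Atp5b encodes the catalytic beta subunit of the ATP synthase, of which each enzyme holds several copies. The lowest levels were 12.9 CPM per kb for Atp5s, 13.8 for Cox4i2, 21.9 for Atp5sl and 45.3 for Cox6a1. Cox4i2, a subunit version linked to the lung and to low oxygen, and Cox6a1, the version of most tissues, were thus rare beside their partners in this heart tissue. A mean of at least 100 CPM was reached by 32 of the 40 genes, against 1508 of all 12408, so these genes have narrow counting intervals and pass an interval rule more often than a typical gene.

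**Figure D1:**
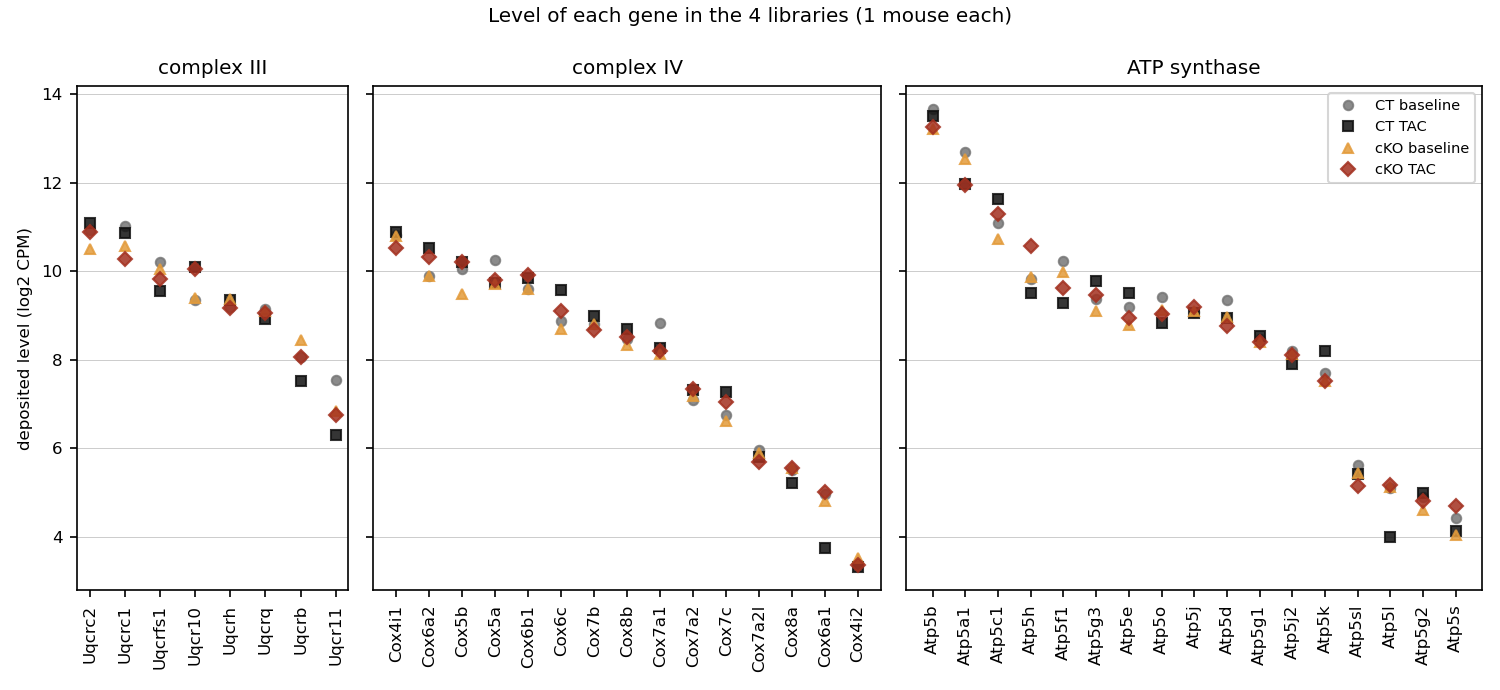
Level of each of the 40 genes (deposited log2 CPM, vertical axis) in the 4 libraries, 1 point per library, with the genes of each complex ordered by mean level. Atp5b is the highest point in every library, and the CT TAC squares of Cox6a1 (13.0 CPM) and Atp5l (15.5 CPM) lie below the other 3 points of those genes.

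The summed transcript level of each complex was lower in the libraries labelled cKO than in their CT counterparts. The cardiomyocyte marker sum was lower too, but single markers went both ways. Its largest member Myh6 read 57903, 51827, 41570 and 33239 CPM (CT baseline, CT TAC, cKO baseline, cKO TAC). Of the 10 markers, 6 were lower in cKO at baseline and 5 under TAC. The part of cardiomyocyte content in the complex sums was not tested. Complex III summed to 7498 CPM at baseline and 7297 under TAC in CT, and 6380 and 6590 in the libraries labelled cKO. Complex IV summed to 7928, 8749, 6912 and 7847 CPM in the same order. The ATP synthase summed to 28088, 24304, 22672 and 22192 CPM, of which Atp5b made up between 42.3% and 48.1%. In words, complex IV was higher in both TAC libraries than in their baselines, the ATP synthase was highest in CT baseline, and complex III differed little with TAC.

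At baseline the summed level in cKO was 0.851 times that in CT for complex III (95% counting interval 0.831 to 0.871), 0.872 times for complex IV (0.852 to 0.892) and 0.807 times for the ATP synthase (0.797 to 0.817). Under TAC the same ratios were 0.903, 0.897 and 0.913. TAC against baseline gave 0.973 in CT and 1.03 in cKO for complex III, 1.10 and 1.14 for complex IV, and 0.865 and 0.979 for the ATP synthase. These intervals cover counting error in 1 library per group and say nothing of the spread between mice. When libraries were scaled by total reads, without the composition factor in the deposited values, the 3 baseline genotype ratios moved to 0.908, 0.930 and 0.861 and stayed below 1. Without its most abundant member the complex III ratio of cKO TAC to cKO baseline turned to 0.952.

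**Figure D2:**
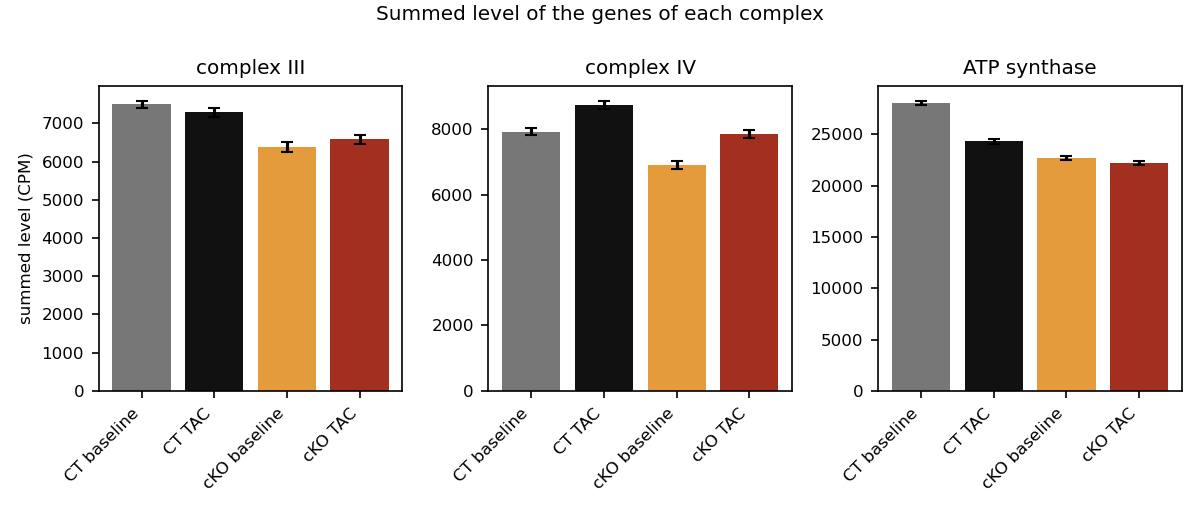
Summed level (CPM) of the genes of complex III, complex IV and the ATP synthase in each of the 4 libraries, with bars from 0 and error bars for the exact 95% counting interval of the share of reads. The complex IV bar is higher under TAC than at baseline in both genotypes (8749 against 7928 CPM in CT, 7847 against 6912 CPM in cKO), while the ATP synthase bar is highest in CT baseline at 28088 CPM.

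Between genotypes at baseline most of the 40 genes were lower in the cKO heart, by modest amounts. The median log2 ratio of cKO to CT was -0.16, with 30 of 40 genes (75%) below 0. All genes had a median of 0.00 with 49.6% below 0, and the genes of at least 100 CPM, where 32 of the 40 belong, a median of -0.08 with 60.9% below 0. By a rule that the 95% counting interval of the ratio excludes 1, 16 members were lower and 2 (Uqcrb and Uqcrh) were higher. The same rule called 10.4% of all genes lower and 9.26% higher. Among the 1508 genes of at least 100 CPM it called 34.7% lower and 20.6% higher, beside 16 and 2 of the 32 members at that level. No member was 2-fold apart, which 3.26% of all genes were upwards and 1.8% downwards. The scale matters here: scaling by total reads raised every genotype log2 ratio by 0.09 at baseline and 0.10 under TAC, moved the all-gene medians to 0.10 and 0.10, and changed the members to 7 higher and 14 lower at baseline, with 23 of 40 below 0.

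By complex, the baseline genotype medians were -0.11 for complex III, -0.07 for complex IV and -0.24 for the ATP synthase, where 14 of 17 genes were below 0 and 8 were lower with none higher by the interval rule. Under total reads scaling the medians became -0.02, 0.02 and -0.15. The sign for complex IV therefore turns with the scaling, while that for the ATP synthase does not.

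Under TAC the genotype comparison was mixed. The median log2 ratio of the library labelled cKO TAC to CT TAC was -0.06, with 11 members higher and 14 lower by the interval rule, where 9.5% and 11.2% of all genes were called, and 21.4% and 33.9% of those of at least 100 CPM. Scaled by total reads the split was 16 higher and 11 lower. Atp5h, Cox6a1 and Atp5l were at least 2-fold higher, a call made for 2.93% of all genes, and none was 2-fold lower, as 2.09% were. The medians of complex III, complex IV and the ATP synthase were 0.04, -0.06 and -0.15, or 0.14, 0.03 and -0.05 by total reads.

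The pair of genotype comparisons uses 4 different libraries, so their values can be set side by side. Lower in cKO in both states were 8 of the 40 genes: Uqcrc1 and Uqcrc2 of complex III, Cox6c of complex IV, and Atp5b, Atp5c1, Atp5d, Atp5e and Atp5g3 of the ATP synthase. Only Uqcrb was higher in both. Uqcrb has 3 near-identical copies elsewhere in the genome and Cox6c, of the 8 lower genes, has 2, so the split of their reads is uncertain. Scaled by total reads, 6 of the 8 remained lower in both, without Cox6c and Atp5d, and Uqcrb, Cox6b1 and Atp5h were higher in both. Over all genes 3.08% were lower and 2.01% higher in both, and among genes of at least 100 CPM 15.7% and 7.63%. The 8 genes include 4 of the 5 subunits of the soluble catalytic head of the ATP synthase (beta, gamma, delta and epsilon) and both core proteins of complex III. In opposite directions in the 2 states were 5 genes (Uqcr11, Uqcrfs1, Uqcrh, Atp5f1 and Atp5o), or 12.5%, where 2.78% of all genes and 10.7% of those of at least 100 CPM were. By total reads 8 genes were: Uqcrfs1 and Uqcrh were lost, and Cox4i1, Cox5a, Cox5b, Cox6a2 and Atp5a1 were gained. Over the 40 genes the paired log2 ratios had a Pearson r of 0.21, beside 0.15 over all genes of at least 100 CPM, and genes within a library are not independent replicates.

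**Figure D3:**
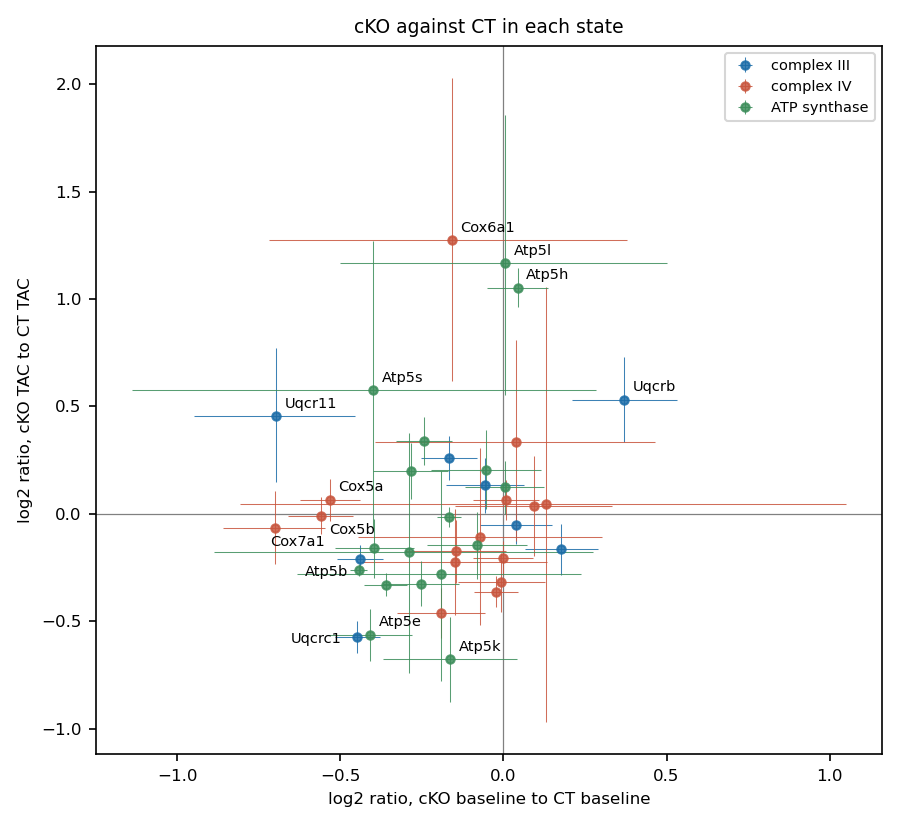
log2 ratio of cKO to CT at baseline (horizontal axis) and under TAC (vertical axis) for the 40 genes, coloured by complex, with 95% counting intervals. Uqcrc1, Atp5e and Atp5b lie below 0 on both axes, while Cox6a1, Atp5l and Atp5h lie near 0 at baseline and above 1 under TAC.

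After TAC the 40 genes split in both directions. In CT hearts the median log2 ratio of TAC to baseline was -0.12 over the 40 genes and 0.07 over the 32 of at least 100 CPM, with 15 members higher and 16 lower by the interval rule, where 16.4% and 15.2% of all genes were called. In cKO hearts it was 0.03, with 12 higher and 8 lower, where 11.2% and 10.9% of all genes were called. The members' shares exceeded those of all genes on both sides, but genes of at least 100 CPM were called at 31.8% higher and 35.5% lower in CT and at 27.5% and 29.8% in cKO. By 2-fold, 3 members (Uqcr11, Cox6a1 and Atp5l) were lower in CT TAC, a call made for 4.67% of all genes, and none was 2-fold higher, as 6.05% were. In cKO none was 2-fold apart, beside 3.69% of all genes higher and 2.83% lower.

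The TAC comparisons in CT and in cKO share no library. Higher in both were 11 members: Uqcr10 and Uqcrc2, the complex IV genes Cox5b, Cox6a2, Cox6b1, Cox6c, Cox7c and Cox8b, and Atp5c1, Atp5e and Atp5g3. Lower in both were 6: Uqcrb, Uqcrc1, Uqcrfs1, Atp5a1, Atp5d and Atp5f1. Both sets were the same under total reads and under median-of-ratios scaling. Of all genes 5.6% were higher and 4.9% lower in both, and of those of at least 100 CPM 17.7% and 18.7%. Complex IV gave 6 genes higher in both and 0 lower, complex III 2 and 3, and the ATP synthase 3 and 3. Opposite directions were seen for Uqcrh, Cox4i1 and Atp5h, or 7.5% of the 40, where 1.86% of all genes and 7.29% of those of at least 100 CPM had them. The paired log2 ratios of the 40 genes had a Pearson r of 0.49, beside 0.58 over all genes of at least 100 CPM.

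**Figure D4:**
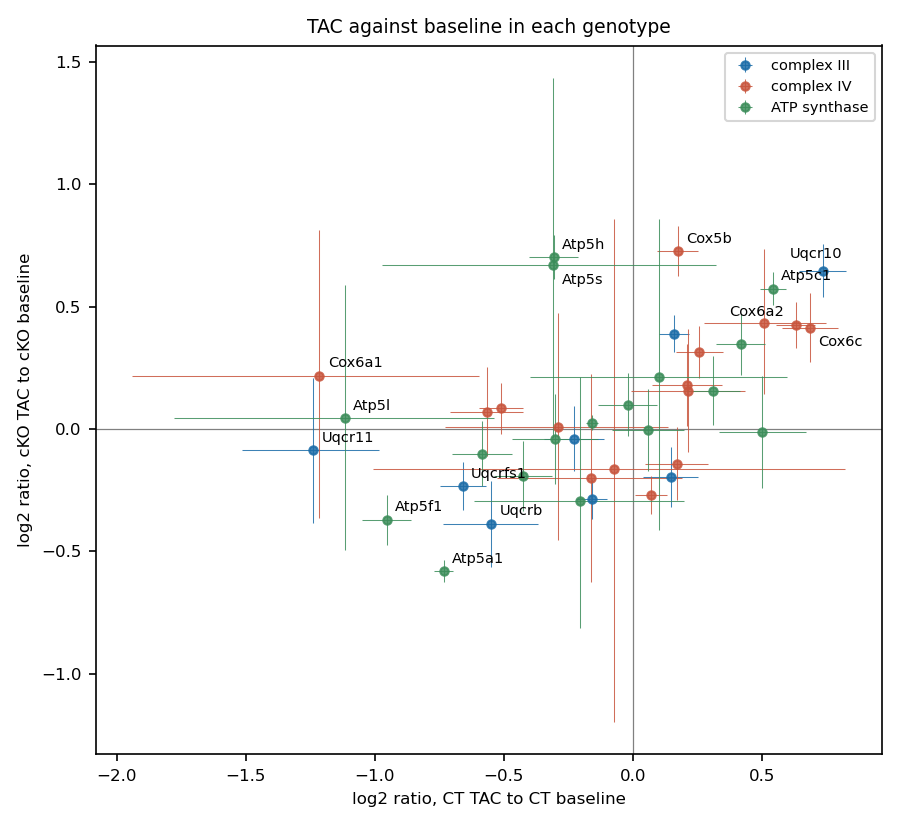
log2 ratio of TAC to baseline in CT (horizontal axis) and in cKO (vertical axis) for the 40 genes, coloured by complex, with 95% counting intervals. Uqcr10, Cox6c, Cox6a2 and Atp5c1 lie above 0 on both axes, Atp5a1, Atp5f1, Uqcrfs1 and Uqcrb below 0 on both, and Uqcr11, Cox6a1 and Atp5l lie below -1 in CT and near 0 in cKO.

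The median TAC log2 ratio was 0.17 in CT and 0.15 in cKO for complex IV, -0.19 and -0.14 for complex III, and -0.20 and 0.02 for the ATP synthase. Cox5b, Cox6c, Cox7b and Cox7c have near-identical copies elsewhere in the genome, and without them the complex IV value in CT turned to -0.07. The complex III value in CT nearly vanished without Uqcr11 and Uqcrb, which also have copies. The difference between genotypes in the TAC response could not be tested with 1 library per group. Its median, cKO minus CT, was 0.12 over the 40 genes, 0.17 for complex III, -0.04 for complex IV, 0.15 for the ATP synthase and -0.01 over all genes.

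A limma fit over the 4 libraries with additive terms for genotype and surgery called none of the 40 genes for either effect at a Benjamini-Hochberg adjusted p under 0.05. For TAC it called 161 genes that rose (1.3%) and 65 that fell (0.524%) among all 12408, and for genotype 3 that rose (0.0242%) and 0 that fell. Unadjusted, 7 members rose and 5 fell under TAC at p under 0.05, where 8.85% and 7.37% of all genes did, and 2 rose and 2 fell with genotype, where 4.13% and 3.63% did. The lowest adjusted p among the members was that of Uqcr10 for TAC (log2 effect 0.69, SE 0.16, limma adjusted p = 0.0644, higher in both pairs), followed by Atp5a1 (-0.66, SE 0.18, adjusted p = 0.104, lower in both pairs). When the fit was limited to genes with a mean of at least 5 CPM, those 2 genes passed, with limma adjusted p of 0.0381 and 0.0394. For genotype the lowest was Uqcrc1 (-0.51, SE 0.17, limma adjusted p = 0.531). The fit has 1 residual degree of freedom, which is the difference of the genotype effects between baseline and TAC. In that residual a difference in response and the spread between mice cannot be told apart. With 2 mice per side the fit leans on variance shared across genes.

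Within complex III, Uqcr10, a small supernumerary subunit, was higher in both TAC hearts. It stood at 658 CPM at baseline and 1096 under TAC in CT, and 675 and 1057 in the libraries labelled cKO. The TAC libraries lay above both baselines, with log2 ratios of 0.74 (0.65 to 0.83) in CT and 0.65 (0.54 to 0.75) in cKO and genotype ratios of 0.04 and -0.05. Uqcrc2, a core protein facing the matrix, read 1960, 2189, 1445 and 1893 CPM in the same order. It was higher with TAC in both genotypes (0.16 and 0.39) and lower in cKO in both states (-0.44 and -0.21).

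The partner core protein Uqcrc1 was at 2072 CPM at baseline and 1856 under TAC in CT, and 1519 and 1246 in the libraries labelled cKO. Both libraries labelled cKO lay below both CT libraries, with genotype log2 ratios of -0.45 (-0.52 to -0.38) at baseline and -0.57 (-0.65 to -0.50) under TAC. The 2 core proteins thus moved together with genotype and apart with TAC. Uqcrb, which helps form the quinone-binding site, went the other way with genotype: 269, 184, 349 and 266 CPM, higher in cKO by 0.37 and 0.53 and lower with TAC at log2 ratios of -0.55 and -0.39.

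Uqcrfs1, the Rieske iron-sulfur protein that passes the electron onward, was at 1194 CPM at baseline and 756 under TAC in CT, and 1064 and 905 in the libraries labelled cKO. It was lower with TAC in both genotypes, at log2 ratios of -0.66 (-0.75 to -0.57) in CT and -0.23 (-0.33 to -0.14) in cKO. Its genotype ratio therefore changed sign, from -0.17 at baseline to 0.26 under TAC. Uqcr11, another small subunit, read 186, 78.4, 114 and 108 CPM. Its CT baseline and CT TAC values were the highest and the lowest, and both cKO values lay between them with a ratio of -0.09 (-0.38 to 0.21). The 2 remaining genes changed less: the hinge protein Uqcrh had log2 ratios between -0.20 and 0.18, and Uqcrq between -0.23 and 0.13.

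In complex IV, Cox6c was lower in cKO in both states and higher with TAC in both genotypes. It stood at 473 CPM at baseline and 762 under TAC in CT, and 415 and 553 in the libraries labelled cKO. The TAC log2 ratios were 0.69 (0.58 to 0.79) in CT and 0.41 (0.27 to 0.56) in cKO, and the genotype ratios -0.19 and -0.46. Cox6c has 2 near-identical copies in the genome, so how the authors' counting split its reads is uncertain. Cox5a, a nuclear subunit that binds the matrix side of the enzyme, was at 1221, 857, 845 and 896 CPM. CT baseline alone was high, and the other 3 libraries lay between 845 and 896 CPM.

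Cox5b, which carries the zinc of the complex, was at 1059 CPM at baseline and 1194 under TAC in CT, and 718 and 1188 in the libraries labelled cKO. Here the library labelled cKO baseline alone was low, with a genotype log2 ratio of -0.56 (-0.66 to -0.46) at baseline and -0.01 under TAC. Cox4i1, the main nuclear subunit, differed little, at 1796, 1886, 1769 and 1468 CPM, and was lower in cKO TAC than in CT TAC at a log2 ratio of -0.36. Of the others outside the isoform pairs, Cox6b1 was higher with TAC by 0.26 in CT and 0.31 in cKO, Cox7c by 0.51 and 0.43, and Cox7b by 0.17 in CT with -0.14 in cKO. The interval of the supercomplex factor Cox7a2l included 1 in all 4 comparisons, at levels between 51.1 and 61.7 CPM.

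The muscle versions of complex IV subunits outnumbered their ubiquitous partners in every library, and the 3 pairs moved differently. Since both genes of a pair are read in the same library, their read ratio does not depend on library size. Cox6a2, the heart and skeletal muscle version of subunit 6a, stood at 950 CPM at baseline and 1472 under TAC in CT, and 949 and 1275 in the libraries labelled cKO, higher with TAC in both genotypes. Its ubiquitous partner Cox6a1 stood at 30.8, 13.0, 27.5 and 32.1 CPM, from 83, 26, 45 and 59 reads, and was low in CT TAC alone. The read ratio Cox6a2 to Cox6a1 was therefore 30.9, 113, 34.5 and 39.7, with log2 differences of 1.88 (1.24 to 2.52) for TAC in CT, 0.20 (-0.36 to 0.77) for TAC in cKO and -1.51 (-2.18 to -0.84) between genotypes under TAC.

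Cox7a1, the muscle version of subunit 7a, was at 455 CPM at baseline and 307 under TAC in CT, and 280 and 294 in the libraries labelled cKO, and Cox7a2, its ubiquitous partner, at 136, 158, 146 and 162 CPM. CT baseline stood apart with a ratio of 3.33 (2.97 to 3.76), against 1.94 (1.69 to 2.23) in CT TAC, 1.92 (1.64 to 2.26) in cKO baseline and 1.81 (1.57 to 2.09) in cKO TAC. The last 3 did not differ beyond their counting intervals. The log2 difference was -0.80 (-1.08 to -0.51) between genotypes at baseline and -0.78 (-1.04 to -0.52) for TAC in CT. These comparisons share the CT baseline library and are not independent of each other. In cKO the TAC difference was -0.08 (-0.39 to 0.22).

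Cox8b, the muscle version of subunit 8, read 357, 413, 323 and 366 CPM and Cox8a, its ubiquitous partner, 45.2, 36.9, 46.5 and 46.8 CPM (CT baseline, CT TAC, cKO baseline, cKO TAC). Their ratio was 7.90, 11.2, 6.95 and 7.83, highest in CT TAC. The log2 difference was 0.50 (0.06 to 0.94) for TAC in CT, 0.17 (-0.30 to 0.65) for TAC in cKO and -0.52 (-0.99 to -0.04) between genotypes under TAC. Cox4i2 had only between 18 and 27 reads per library, and its ratio to Cox4i1 stayed between 0.00503 and 0.00667 with no interval of a difference excluding 0. The 3 pairs did not shift in 1 direction: under TAC in CT the muscle share was higher for subunits 6a and 8 and lower for subunit 7a. Of the 6 skeletal muscle markers listed, Myh1, Myh2, Myh4, Tnni2 and Actn3 were at 6.99 CPM or below in every library. Ckm, the muscle creatine kinase that heart muscle also expresses, stood at 3808, 2060, 2597 and 1922 CPM, highest in CT baseline.

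**Figure D5:**
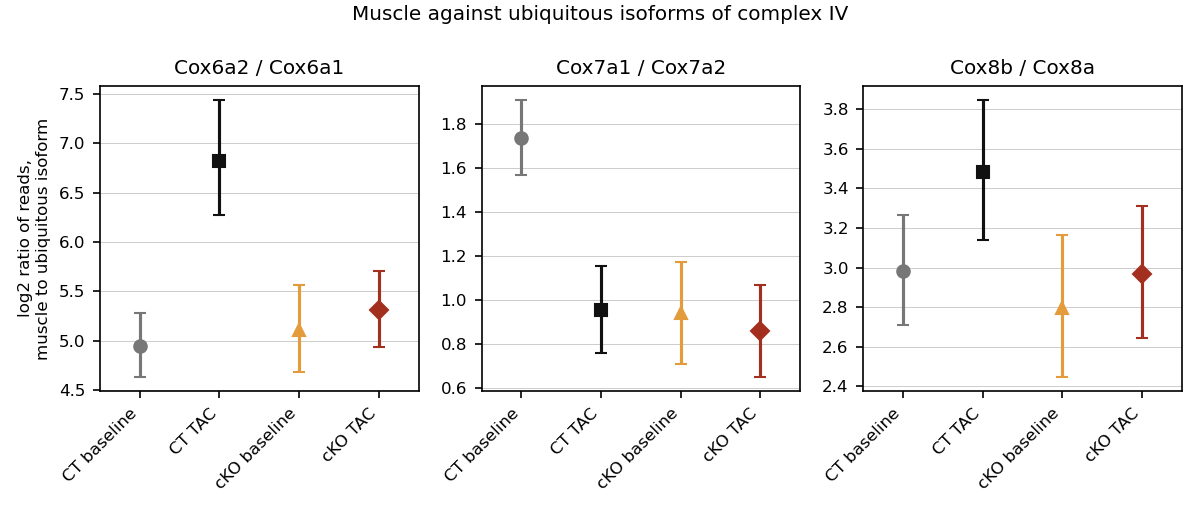
log2 ratio of reads of the muscle version to the ubiquitous version of complex IV subunits 6a, 7a and 8 in each library (vertical axes differ between panels), with 95% counting intervals. CT TAC is highest for Cox6a2 to Cox6a1 and for Cox8b to Cox8a, and CT baseline is highest for Cox7a1 to Cox7a2.

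In the soluble head of the ATP synthase the subunits did not move as 1 block. Atp5b, the catalytic beta subunit, was at 13035 CPM at baseline and 11683 under TAC in CT, and 9582 and 9749 in the libraries labelled cKO. Both libraries labelled cKO were below both CT libraries, with genotype log2 ratios of -0.44 (-0.47 to -0.42) and -0.26 (-0.29 to -0.23). Atp5a1, the alpha subunit that alternates with beta, followed the surgery: 6648, 4000, 5923 and 3960 CPM, with TAC ratios of -0.73 (-0.77 to -0.69) in CT and -0.58 (-0.63 to -0.54) in cKO. Both TAC libraries lay below both baselines, and the genotype ratio under TAC was -0.01.

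Atp5c1, the gamma subunit of the rotating shaft, moved against alpha: 2171 CPM at baseline and 3163 under TAC in CT, and 1691 and 2517 in the libraries labelled cKO. It was higher with TAC by 0.54 (0.49 to 0.59) in CT and 0.57 (0.51 to 0.64) in cKO, and lower in cKO at log2 ratios of -0.36 and -0.33. Atp5e, the epsilon subunit, read 588, 730, 443 and 494 CPM, lower in cKO at log2 ratios of -0.41 and -0.56 and higher with TAC by 0.31 and 0.16. Atp5d, the delta subunit, was lower in every comparison, between -0.42 and -0.16. Alpha and beta sit in the enzyme in equal number, and in these libraries alpha differed more with the surgery and beta more with the genotype label.

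Among the genes of the stator stalk, which holds the head still, Atp5f1 and Atp5h stood apart. Atp5f1, subunit b, was at 1206 CPM at baseline and 623 under TAC in CT, and 1018 and 787 in the libraries labelled cKO, lower with TAC in both genotypes at log2 ratios of -0.95 (-1.05 to -0.86) and -0.37 (-0.47 to -0.27). Atp5h, subunit d, was at 905, 732, 933 and 1518 CPM. The library labelled cKO TAC alone was high, with log2 ratios of 1.05 (0.96 to 1.15) to CT TAC and 0.70 (0.61 to 0.79) to cKO baseline, while TAC in CT gave -0.31. Atp5h has 3 near-identical copies and Atp5f1 has 1, and these copies are absent from the listed genes, so the split of reads is uncertain. Atp5j, coupling factor 6, stayed between 537 and 585 CPM, and Atp5o, which ties the stalk to the head, was lower in CT TAC at a log2 ratio of -0.58 with -0.10 in cKO.

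The rotating ring is made of subunit c, whose identical mature protein comes from 3 genes. Per kilobase Atp5g3 stood at 974 CPM, Atp5g1 at 131 and Atp5g2 at 47.9. The Atp5g1 value rests on a transcript length of 2675.5 bases, against 718.5 for Atp5g3, though their coding sequences are 408 and 423 bases. The size of the gap between Atp5g3 and Atp5g1 therefore depends on the length used. Before division by length their mean levels were 700 and 350 CPM. Atp5g3 was at 660 CPM at baseline and 882 under TAC in CT, and 553 and 703 in the libraries labelled cKO, higher with TAC by 0.42 and 0.35 and lower in cKO at log2 ratios of -0.25 and -0.33. The intervals of Atp5g1 and Atp5g2 included 1 in all 4 comparisons, and Atp5g2 lay at 31.4 CPM or below.

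The small membrane subunits e, f and g sit where pairs of enzymes meet. Atp5k, subunit e, was at 207 CPM at baseline and 293 under TAC in CT, and 185 and 183 in the libraries labelled cKO. It was high in CT TAC alone, with a genotype log2 ratio of -0.68 (-0.87 to -0.48) under TAC. Atp5l, subunit g, showed the reverse: 34.1, 15.5, 34.3 and 35.3 CPM, low in CT TAC alone, at a log2 ratio of -1.12 (-1.78 to -0.54) against CT baseline and with 1.17 (0.55 to 1.86) between genotypes under TAC. Atp5l has 8 near-identical copies, the most among the 40 genes. Atp5j2, subunit f, was lower in CT TAC at a log2 ratio of -0.30. The intervals of Atp5s and Atp5sl included 1 in all 4 comparisons, at levels of 48.9 CPM or below.

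The 3 genes past 2-fold in CT hearts under TAC, Uqcr11, Cox6a1 and Atp5l, were lowest in that 1 library and belong to 3 different complexes. Usmg5, a small membrane subunit of the ATP synthase outside the symbol rule, was also lowest there, with 186 CPM at baseline and 32.9 under TAC in CT, and 95.4 and 175 in the libraries labelled cKO. Its log2 ratios were -2.48 for TAC in CT and 2.39 between genotypes under TAC. The erythroid marker sum was also lowest in CT TAC. That sum was highest in cKO TAC, while Uqcr11 and Usmg5 were highest in CT baseline. Cox6a1 and Atp5l read little higher in cKO TAC than in CT baseline, at 32.1 against 30.8 CPM and 35.3 against 34.1. For both genes the interval of cKO TAC to cKO baseline included 1. The part of erythroid content in these values was not tested. Of the 13 members with near-identical copies Uqcr11 and Atp5l are 2, and Cox6a1 has none.

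Promoter windows from the RefSeq table (build GRCm38.p6), 250 bases before to 50 after each gene's start, were matched for 32 of the 40 genes and searched on both strands for 4 motifs of 7 letters. CCGGAAG of the ETS factor GABPA was in 10 of 32 windows (31.2%), against 19.7% of the windows of the listed genes and 9.93% of all. GCATGCG of NRF1, the nuclear respiratory factor, was in 7 (21.9%), against 7.30% and 4.01%, AAGGTCA of the estrogen-related receptors in 4 (12.5%), against 3.88% and 5.38%, and ATGGCGG of YY1 in 3 (9.38%), against 9.34% and 4.69%. The GABPA and NRF1 letters occurred together in 5 windows, those of Uqcr11, Cox6a1, Atp5j, Atp5k and Atp5l, where 1.72% of the listed genes held both. The 3 genes at least 2-fold lower in CT TAC than in CT baseline are thus among the 5. Atp5j stayed level and Atp5k was high in the same library. Uqcrfs1, Cox8a, Atp5f1, Atp5h, Atp5j2 and Atp5o were also lowest in CT TAC, and none of their windows held both. A tie between these letters and the levels was not tested. A match is not a binding site. The windows of the 3 genes, chosen after their values were seen, follow 5′ to 3′ on the gene's strand, with motif matches in capitals. They lie at chr10:80406772-80407071 (minus strand) for Uqcr11, chr5:115348909-115349208 (minus) for Cox6a1 and chr9:44920693-44920992 (minus) for Atp5l, each spanning the start of the first exon. The run CGCATGCG in each holds the NRF1 letters on both strands, overlapping.
Uqcr11: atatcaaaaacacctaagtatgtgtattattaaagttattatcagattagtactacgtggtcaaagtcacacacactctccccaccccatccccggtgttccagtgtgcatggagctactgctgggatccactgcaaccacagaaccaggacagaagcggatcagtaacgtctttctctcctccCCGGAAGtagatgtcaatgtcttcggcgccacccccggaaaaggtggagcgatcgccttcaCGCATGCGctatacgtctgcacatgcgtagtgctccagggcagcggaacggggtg
Cox6a1: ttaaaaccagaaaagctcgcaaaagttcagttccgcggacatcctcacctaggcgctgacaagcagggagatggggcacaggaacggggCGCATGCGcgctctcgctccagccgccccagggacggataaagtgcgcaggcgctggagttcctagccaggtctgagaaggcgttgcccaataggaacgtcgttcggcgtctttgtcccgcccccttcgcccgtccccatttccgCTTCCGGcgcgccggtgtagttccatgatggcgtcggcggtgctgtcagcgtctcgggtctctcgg
Atp5l: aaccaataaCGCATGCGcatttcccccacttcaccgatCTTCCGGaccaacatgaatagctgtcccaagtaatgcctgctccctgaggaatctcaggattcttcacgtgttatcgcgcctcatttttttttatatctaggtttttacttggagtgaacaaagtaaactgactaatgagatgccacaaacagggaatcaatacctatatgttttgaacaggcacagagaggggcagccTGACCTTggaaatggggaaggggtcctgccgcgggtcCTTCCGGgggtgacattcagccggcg

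Of the isoform pairs, the subunit 7a genes Cox7a1 and Cox7a2 held none of the 4 motifs in either window, and the subunit 8 pair differed. The window of Cox8b, at chr7:140900397-140900696 (minus strand), held none of the 4 motifs, and that of Cox8a, at chr19:7217567-7217866 (minus), held the GABPA letters at 2 places, in capitals. No match says only that these letters are not in this window. Neither gene changed by 2-fold in any comparison.
Cox8b: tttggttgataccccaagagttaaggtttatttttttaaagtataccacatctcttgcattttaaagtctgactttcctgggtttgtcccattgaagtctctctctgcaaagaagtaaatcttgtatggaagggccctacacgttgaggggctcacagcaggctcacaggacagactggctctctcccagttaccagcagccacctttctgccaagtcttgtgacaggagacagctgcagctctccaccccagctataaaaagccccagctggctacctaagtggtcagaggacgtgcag
Cox8a: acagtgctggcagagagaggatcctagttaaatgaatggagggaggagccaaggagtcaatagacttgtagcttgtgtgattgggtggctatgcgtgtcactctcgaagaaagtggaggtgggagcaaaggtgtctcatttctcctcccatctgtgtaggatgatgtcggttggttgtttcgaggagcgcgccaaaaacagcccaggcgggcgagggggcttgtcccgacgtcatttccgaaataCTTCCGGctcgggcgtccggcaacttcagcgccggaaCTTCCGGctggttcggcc

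The genes around the 3 complexes were taken from lists of partner subunits, assembly factors and regulators. Cyc1, the cytochrome c1 of complex III, was lower with TAC in both genotypes, at 488, 427, 488 and 384 CPM, and Ndufa4, a complex IV subunit named for complex I, was higher with TAC in both, at 1097, 1408, 998 and 1224 CPM (CT baseline, CT TAC, cKO baseline, cKO TAC). Atpif1, the inhibitor that blocks the ATP synthase when it would run backwards, was higher with TAC in both genotypes. It stood at 257 CPM at baseline and 661 under TAC in CT, and 402 and 557 in the libraries labelled cKO, with TAC log2 ratios of 1.36 in CT and 0.47 in cKO. Cycs, the soluble electron carrier, stood at 119, 83.4, 91.8 and 74.0 CPM.

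Of the 6 complex III assembly factors, Ttc19, which clears fragments of the Rieske protein, fell with TAC (log2 effect -1.41, SE 0.29, limma adjusted p = 0.0362), at 36.1, 11.5, 38.5 and 16.3 CPM. It was low in both TAC libraries. The call was lost without the mean-variance trend (limma adjusted p = 0.315) and without the genotype term (0.117), and over all alternatives the adjusted p ranged from 0.0170 to 0.315. Lyrm7, the chaperone of the Rieske protein, was 2-fold lower in cKO TAC than in cKO baseline and in CT TAC, at 2.18 CPM against 9.79 and 6.99, from only 4, 16 and 14 reads. Of the 23 complex IV assembly factors none passed the limma threshold. By 2-fold, Cox11 was lower in cKO TAC than in cKO baseline and CT TAC (5.98 against 14.1 and 13.0 CPM, from 11, 23 and 26 reads). Over all genes 2.83% and 2.09% were 2-fold lower in these comparisons. Pet117 had 0 reads in either TAC library, against 8 and 6 at baseline, too few for a fold. Lrpprc, which stabilises mitochondrial messenger RNA, was at 707, 469, 569 and 410 CPM, lower in all 4 comparisons, with log2 ratios from -0.59 to -0.20.

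None of the 16 regulators of respiratory genes passed the limma threshold, with 12 of 16 below 0 for TAC in CT and 14 of 16 in cKO, where 49.1% and 50.2% of all genes were. Ppargc1a, the PGC-1 alpha coactivator, was at 355 CPM at baseline and 267 under TAC in CT, and 194 and 209 in the libraries labelled cKO. CT baseline was high and both libraries labelled cKO were low. Esrra and Esrrg, the estrogen-related receptors alpha and gamma, were 2-fold lower in CT TAC than in CT baseline (-1.03 and -1.25), and Esrrb was 2-fold lower in cKO than in CT at baseline (-1.10), calls made for 4.67% and 1.8% of all genes.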

How the data were processed

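Whole heart RNA of 4 mice was sequenced, 1 library per group. Per the submitters' processing notes CASAVA, HISAT2, edgeR and the mm10 build were used, with no versions or roles. Which counter and annotation served is not given in the sources used here. Deposited by the authors were log2 CPM values per gene symbol, with 1 read scaled by library size added before the logarithm, as read from the grid of the values. Reads were recovered from the grid, and 35 of the 40 genes had whole reads in every library (within 0.01). The other 5 (Cox4i1, Cox7a2l, Atp5c1, Atp5f1 and Atp5g3) held parts of reads.

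From these values log2 ratios between library pairs, Clopper-Pearson 95% counting intervals, summed CPM and isoform read ratios were computed (Python 3.11.15, scipy 1.17.1). Intervals cover counting error only and say nothing of the spread between mice. Because reads from PCR copies of a molecule are not independent, the intervals may be too narrow even for counting error. With 1 library per group a pair has neither replicates nor a p-value. Models were fitted with limma 3.58.1 in R 4.3.3, using the trend of variance on level and Benjamini-Hochberg adjustment over all 12408 genes. The limma fit was tried on simulated reads with the same spread for every gene and no surgery effect. These settings differ from the data, so the trial does not show how the fit performs here. Coordinates, lengths and copies come from GENCODE M21 of the same build, with a near-identical copy meaning at least 95% identity over at least 90% of the coding sequence. Lengths are medians over coding transcripts. The named genes were both genes of each isoform pair, the 2 highest and 2 lowest of each complex for either effect, those past 2-fold and 1 core subunit per complex. The others named were chosen after their values were seen. The members, lists and rules were chosen with earlier results of these data known. Alternatives were the scaling, a level filter, the model terms, leaving out a library, leaving out the most abundant member and leaving out members with copies, the last chosen after seeing the data.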

Additional observations from a re-analysis of the deposited data

Results flagged for a closer look

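For 7 of the 40 genes both counting intervals excluded 1 in opposite directions, either with TAC in the 2 genotypes (3 genes) or between genotypes in the 2 states (5 genes, Uqcrh being in both). Such opposite calls were made for 1.86% and 2.78% of all genes and for 7.29% and 10.7% of genes of at least 100 CPM, close to the 7.5% and 12.5% of the 40 genes. The differences themselves were not tested, since 1 library per group leaves no spread. Values are the log2 TAC ratio in cKO minus that in CT, which equals the genotype ratio under TAC minus that at baseline. Uqcrh and Cox4i1 were higher with TAC in CT and lower in the library labelled cKO TAC, with differences of -0.34 and -0.34. Atp5h did the reverse, at 1.01. Uqcrh was also higher in cKO at baseline and lower under TAC. By total reads scaling 2 of the 5 opposite genotype calls, those of Uqcrh and Uqcrfs1, were lost. Calls for Cox4i1, Cox5a, Cox5b, Cox6a2 and Atp5a1 were gained, which made 8. The 3 TAC calls stayed and that of Atp5b was gained, which made 4. Uqcr11, Uqcrfs1, Atp5f1 and Atp5o were lower in cKO at baseline and higher under TAC, with differences of 1.15, 0.43, 0.58 and 0.48. Uqcr11, Atp5f1, Atp5h and Atp5o have near-identical copies elsewhere in the genome, and the other 3 of the 7 genes have none.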

How the results depend on the processing

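No paired analysis was possible because the labels give no replicate numbers and each group holds 1 library. Of 358 values recomputed under the alternatives, 294 stayed within the limit or error set for them and kept their sign or side. Beyond that limit 54 moved, and 2 reversed. A moved value could still keep its side, as the summed genotype ratios by total reads did, all below 1. Another 8, all medians of complexes or of all members, turned sign within their error, complex IV between genotypes among them (0.022 at baseline and 0.033 under TAC by total reads). That error was the counting error or, for medians of the limma effects, the standard deviation of the medians of the 2 pairs. Leaving out a library leaves the ratio of the other pair. Scaling by total reads gave 7 members higher in cKO at baseline, and genotype ratios of summed levels of 0.908 and 0.966 (complex III), 0.930 and 0.959 (complex IV) and 0.861 and 0.976 (ATP synthase), at baseline and under TAC. Without members that have copies 1 was higher in cKO at baseline and 5 under TAC (1 by 2-fold), and 10 were lower in CT TAC (1 by 2-fold). Their medians were -0.11 (complex III, genotype under TAC), -0.0058 (complex III, TAC in CT) and, reversed, -0.074 (complex IV, TAC in CT). Without the most abundant member the summed ratios were 0.891 (genotype at baseline), 0.923 (TAC in CT) and, reversed, 0.952 (TAC in cKO) for complex III. They were 0.839, 0.929 and 1.24 (genotype at baseline, genotype under TAC, TAC in cKO) for complex IV. For the ATP synthase they were 0.870, 0.986, 0.838 and 0.951 (genotype at baseline and under TAC, TAC in CT and in cKO).

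The limma counts over all genes varied. For genotype 8 rose with a mean of at least 5 CPM, 0 without the trend and 0 without the surgery term, and 1 fell by median of ratios and 1 with at least 5 CPM. For TAC 0 rose and 0 fell without the trend, 17 rose and 3 fell without the genotype term, 36 fell by total reads and 109 fell with at least 5 CPM, a filter that also gave 1 member that rose and 1 that fell. The genotype median was -0.17 by median of ratios and -0.065 by total reads for complex IV, -0.018 for the ATP synthase and -0.013 for all members by total reads. Leaving out each library gave genotype medians from -0.11 to 0.040 (complex III), -0.071 to -0.064 (complex IV) and -0.24 to -0.15 (ATP synthase), and TAC medians from 0.15 to 0.17 (complex IV) and -0.20 to 0.025 (ATP synthase). The cause was not tested. Depth limits Cox4i2, Cox6a1, Atp5l, Atp5g2 and Atp5s, where a change under 2-fold can lie within the counting interval.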
